A study of Mus musculus with 8 samples.

Results

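The sequences described here are those that the authors' annotation assigned to the RefSeq mRNA accession NM_001034902. They were chosen by that annotation, and the accession was chosen for its number of distinct sequences, so that number is given as a description. Of 6246223 distinct sequences of 15 to 36 nt in the deposited list, 8100 carried the accession, and 6407 of these were 24 to 33 nt long, the size of small RNAs bound by Piwi proteins (piRNAs). The accession ranked second by this number, after Kcnk10 with 14102 sequences and before Asb1 with 5073, Prkca with 4373 and Cbx7 with 3352. All RefSeq mRNA accessions together held 793803 sequences of this length.

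The list came from small RNA of mouse testes that were heterozygous or homozygous for a Tdrd6 knockout at 18 days, 25 days or 6 weeks after birth, or for a Tdrd1 knockout at 18.5 days after conception. The labels gave 1 library for each of these 8 groups and did not say how many animals a library held or which alleles were used. Every library carried at least 1 mutant allele, and no wild-type library was labelled. The table named no library and gave no read number, so the knockouts and the ages were not compared, and every value below counts distinct sequences of the pooled list, each once however often it was read. The depth of the libraries was unknown, and the 95% intervals (exact, Clopper-Pearson) cover counting error only, for sequences that overlap and are not independent molecules.

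piRNAs are small RNAs of animal germ cells that guide Piwi proteins, and Tdrd1 and Tdrd6 encode Tudor-domain proteins that bind Piwi proteins. In the mouse testis most piRNAs of meiotic and later germ cells are cut from long single-stranded transcripts of discrete loci, many of them noncoding. Their 5' ends are usually uridine, written T in the list, and their 3' ends are trimmed to the length that the bound Piwi protein protects. Where transcripts of both strands exist, reciprocal slicing (ping-pong) leaves sense and antisense piRNAs whose 5' parts overlap by 10 nt, with U first in one and A at position 10 in the other.

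The accession stood for a single noncoding transcript. Of its 8100 sequences, 8050 (99.4%, interval 99.2 to 99.5) matched the sense strand of the spliced transcript Gm5878-201 exactly and over their whole length, 30 matched only its antisense strand and 20 did not match it. Gm5878 is a long intergenic noncoding RNA gene in the GENCODE M21 annotation of the mouse genome GRCm38, on the minus strand of chromosome 6 (chr6:85111416-85126125). Its transcript has 3 exons and is 4674 nt long. The RefSeq table lists Gm5878 as a noncoding RNA too and no longer pairs the accession with a symbol, so the link rests on the sequences. The processed pseudogene Gm43959 (chr6:85111693-85112269) lies on the plus strand inside exon 3. Of the matched sequences of 24 to 33 nt that mapped to 1 position, 6361 of 6385 (99.6%, 99.4 to 99.8) were sense to Gm5878.

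The 5' ends shown first are 5 of those that had the most distinct lengths on the transcript, and they show the form of the small RNAs at such ends. Each had a sequence of every length from 24 to 33 nt, and each is printed as its 30 nt form with the first base in capitals. Positions are counted from the first base of Gm5878-201, and all 5 lie in exon 3.
Position 1090, chr6:85114971-85115000: Tgcagctaagagatacaatgcctctcacag
Position 2679, chr6:85113382-85113411: Tgaaatgaatgaggacctggtcctgtgggt
Position 3044, chr6:85113017-85113046: Tcctagctgtctgtagggatctccagacct
Position 4067, chr6:85111994-85112023: Tgacagtattgcaccacgtgttgtatctgg
Position 4217, chr6:85111844-85111873: Tctcctctggaccaggtgaaacagcttgat
All 5 began with T. With shorter and longer forms included, position 1090 had 14 lengths from 21 to 34 nt, position 2679 had 14 from 17 to 33 nt and position 4217 had 14 from 21 to 35 nt.

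The sequences formed a broad size range with 2 maxima. There were 472 at 24 nt, 869 at 27 nt, 815 at 28 nt, 895 at 29 nt and 899 at 30 nt, then 598 at 31 nt and 106 at 33 nt. Lengths of 25 to 27 nt made up 36.8% (35.7 to 38.0) of the sequences of 24 to 33 nt, and lengths of 29 to 31 nt 37.3% (36.2 to 38.5). In mouse testis these are the sizes usually bound by the Piwi proteins MILI and MIWI, respectively, but the table records no bound protein. Among 137 mRNA accessions with at least 500 sequences of 24 to 33 nt, the median share of 25 to 27 nt was 50.4% and that of 29 to 31 nt was 27.2%. Short forms were common as well. Sequences of 19 to 23 nt made up 16.9% of all sequences of the accession, the fourth highest share among those accessions, whose median was 8.76%.

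**Figure D1:**
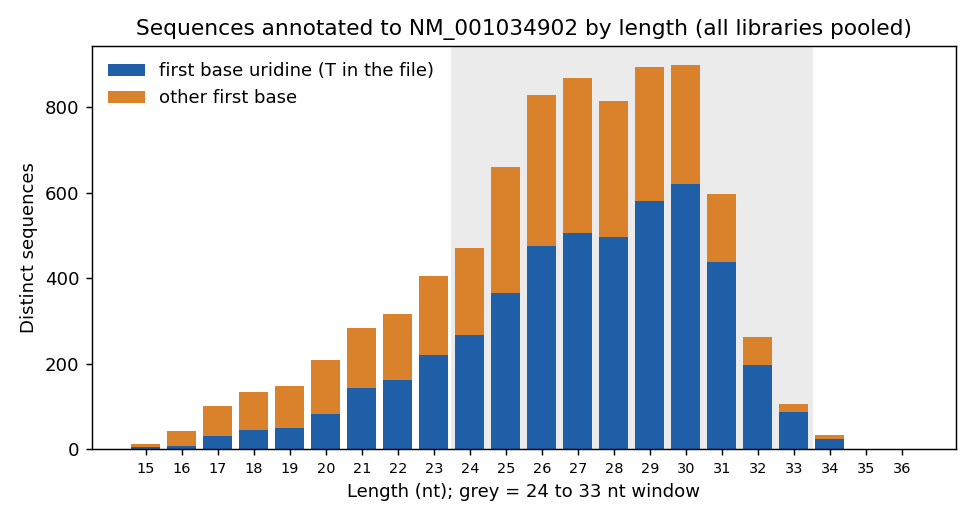
Number of distinct sequences annotated to NM_001034902 at each length from 15 to 36 nt, all libraries pooled, divided by first base (U, written T in the list, or another base). Numbers were 869 at 27 nt, 815 at 28 nt and 899 at 30 nt, and the part with U first grew towards the long side.

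T was the first base of 63.0% (61.8 to 64.2) of the sequences of 24 to 33 nt, against 26.8% of the bases of the transcript. The share was higher at greater lengths, from 56.6% at 24 nt and 58.2% at 27 nt to 69.0% at 30 nt and 82.1% (73.4 to 88.9) at 33 nt. It was 57.1% (55.1 to 59.1) over 25 to 27 nt and 68.5% (66.6 to 70.4) over 29 to 31 nt. A at position 10, the mark of the second ping-pong partner, was found in 26.0% (24.9 to 27.1), close to the 22.8% of A in the transcript. At the other positions near the 5' end no base stood out as T did at the first. With each 5' end of the main set counted once, T made up 44.4% of first bases and between 27.9% and 29.6% of the bases at positions 2 to 16.

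The share with T first was low for an mRNA accession. Among the 137 accessions it was the third lowest, in a range from 54.5% to 88.2% with a median of 80.7%. Of the 4 accessions nearest in rank, Prkca had 63.3% (61.9 to 64.8), Cbx7 67.2%, Kcnk10 70.9% and Asb1 74.2% (73.0 to 75.4). The number of sequences per 5' end, with a 5' end taken as the first 20 bases, was 3.16 for NM_001034902, the highest of the 137 accessions and of 593 with at least 200 sequences. The medians were 1.46 and 1.26, and the 4 neighbours in rank had between 2.45 in Cbx7 and 2.74 in Prkca. Per 3' end the value was 2.49, again the highest, against medians of 1.16 and 1.07. The accession with the most variants per end thus also had one of the lowest shares of T. The sequences per end are counted from the number by which the accession was chosen, and the 4 neighbours lay above the medians too. A high rank in this measure is therefore tied to the choice.

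The values that follow describe the 6361 sense sequences of 24 to 33 nt that carried the accession, mapped to 1 position and matched Gm5878-201. They began at 1988 different bases, 42.5% of the transcript, and ended at 2527. A T served as a 5' end far more often than another base. Of 1252 T bases 70.4% (67.8 to 73.0) were used, of 1068 A bases 37.7% (34.8 to 40.7), of 1123 C bases 32.1% (29.3 to 34.9) and of 1231 G bases 27.9% (25.4 to 30.5). The used T bases had 4.55 sequences each, and the used A, C and G bases 2.20, 2.04 and 2.12. T bases preceded by A were used in 82.5% (77.0 to 87.1) of cases and those preceded by G in 62.7% (56.8 to 68.3). T bases followed by A were used in 80.2% (73.38 to 85.99), and those followed by C, G or T in 67.4% to 71.1%.

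The share of T was lowest at 5' ends with 1 sequence and much higher at those with many. A 5' end can hold at most 10 sequences in the window, 1 of each length. The 698 ends with 1 sequence had T in 19.6% (16.7 to 22.8), below its share in the transcript. The 741 ends with 2 to 4 sequences had it in 40.2% (36.7 to 43.9), the 406 with 5 to 7 in 77.8% (73.5 to 81.8) and the 143 with 8 to 10 in 91.6% (85.8 to 95.6). A at position 10 did not follow this order, with 24.5%, 25.5%, 25.1% and 27.3% in the same groups. The 143 ends with 8 to 10 sequences held 1232 of the 6361 sequences (19.4%), and the 698 ends with 1 sequence held 698.

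**Figure D2:**
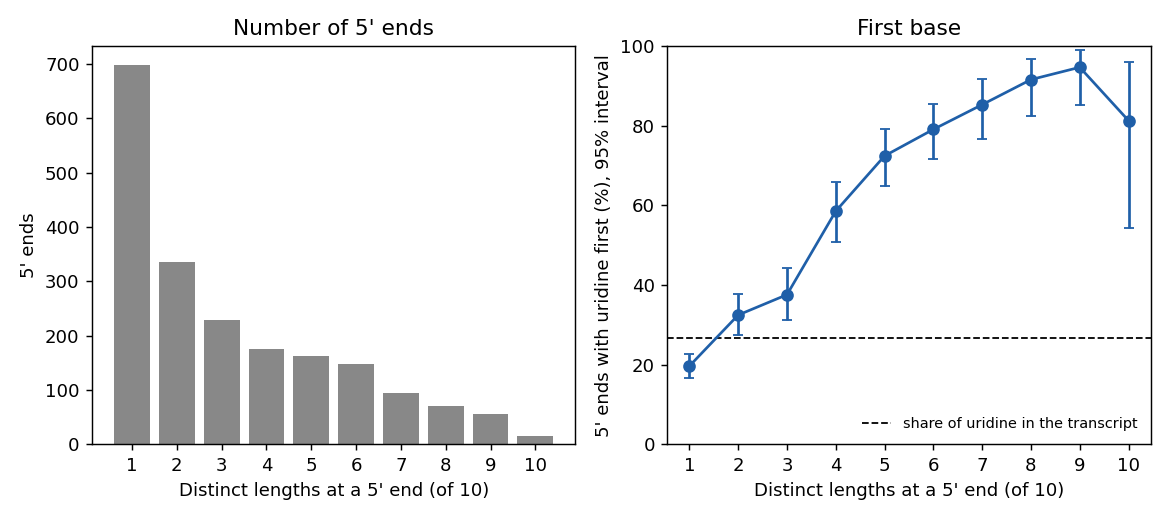
Left, number of 5' ends on Gm5878-201 with 1 to 10 distinct lengths between 24 and 33 nt. Right, share of those 5' ends with uridine first (points, with exact 95% intervals) and the share of uridine in the transcript (dashed line, 26.8%), which lies between the point for 1 length (19.6%) and that for 2 lengths (32.4%).

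Of the 16 ends that held all 10 lengths, 13 began with T. The exceptions lay in 1 run with such a T. Positions 2678 to 2681 formed the longest run of consecutive 5' ends with at least 8 lengths, and all 4 held 10. They are printed as 30 nt forms, with the first base in capitals, because they differ by a shift of 1 base each and only one of them begins with T.
Position 2678, chr6:85113383-85113412: Atgaaatgaatgaggacctggtcctgtggg
Position 2679, chr6:85113382-85113411: Tgaaatgaatgaggacctggtcctgtgggt
Position 2680, chr6:85113381-85113410: Gaaatgaatgaggacctggtcctgtgggtg
Position 2681, chr6:85113380-85113409: Aaatgaatgaggacctggtcctgtgggtga
Another 8 pairs of neighbouring 5' ends had at least 8 lengths each. These runs held 20 of the 143 ends of that breadth, and the other ends of that breadth had no such neighbour.

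Length went with the first base as well. Of the sequences with T first, 40.6% (39.1 to 42.1) were 29 to 31 nt and 33.4% (31.9 to 34.9) were 25 to 27 nt, and the commonest length was 30 nt. Of those with A first, 26.6% (23.7 to 29.6) were 29 to 31 nt and 47.3% (44.0 to 50.6) were 25 to 27 nt, and the commonest length was 26 nt. Sequences with C or G first lay between these values, with 35.2% and 34.2% of 29 to 31 nt. A sequence of 30 nt was present at 69.5% of the 882 T ends and at 25.0% of the 1106 other ends, and one of 26 nt at 53.97% and 32.01%.

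The small RNAs came almost wholly from the last exon. Exon 3 (chr6:85111416-85115434) had 6245 of the 6361 sequences (98.2%) on 85.99% of the transcript's length, or 1554 sequences per kb. Exon 1 (chr6:85125590-85126125) had 116, or 216 per kb, and exon 2 (chr6:85118569-85118687) had none of the accession's sequences. It had 24 sequences with the repeat annotation B1_Mur4, and 4 of these mapped to 1 position. Sense sequences without annotation that mapped to several positions began there too, 35 of them between bases 541 and 600. Another 52 began in the window from 601 to 700, which runs into exon 3. No sequence of the whole list, whatever its annotation, crossed either exon junction with 3 or more bases on each side. Whether the authors' mapping could keep such sequences is not known, so this count says nothing about splicing. Within 50 nt of the junction of exons 1 and 2 19 sequences of the main set began, and within 50 nt of that of exons 2 and 3 none did. Introns were not searched.

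Within exon 3 the sequences were spread over nearly its whole length. Sequences of the main set covered 89.5% of the bases of the transcript, and the median over 46 windows of 100 nt was 138 sequences. The richest window, 4201 to 4300 (chr6:85111790-85111889), had 329 and the next, 4001 to 4100 (chr6:85111990-85112089), 300. The longest stretch not covered by the main set ran from base 532 to base 738, from the end of exon 1 across exon 2 into exon 3. Another, of 70 nt, ran from 1917 to 1986 (chr6:85114104-85114173). The longest was not empty in the list as a whole. Within it, 52 unannotated sequences that mapped to several positions began between bases 601 and 700. Over the windows, the number of T bases and the number of 5' ends had a Pearson r of 0.55 (46 windows of 1 transcript, given as a description).

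**Figure D3:**
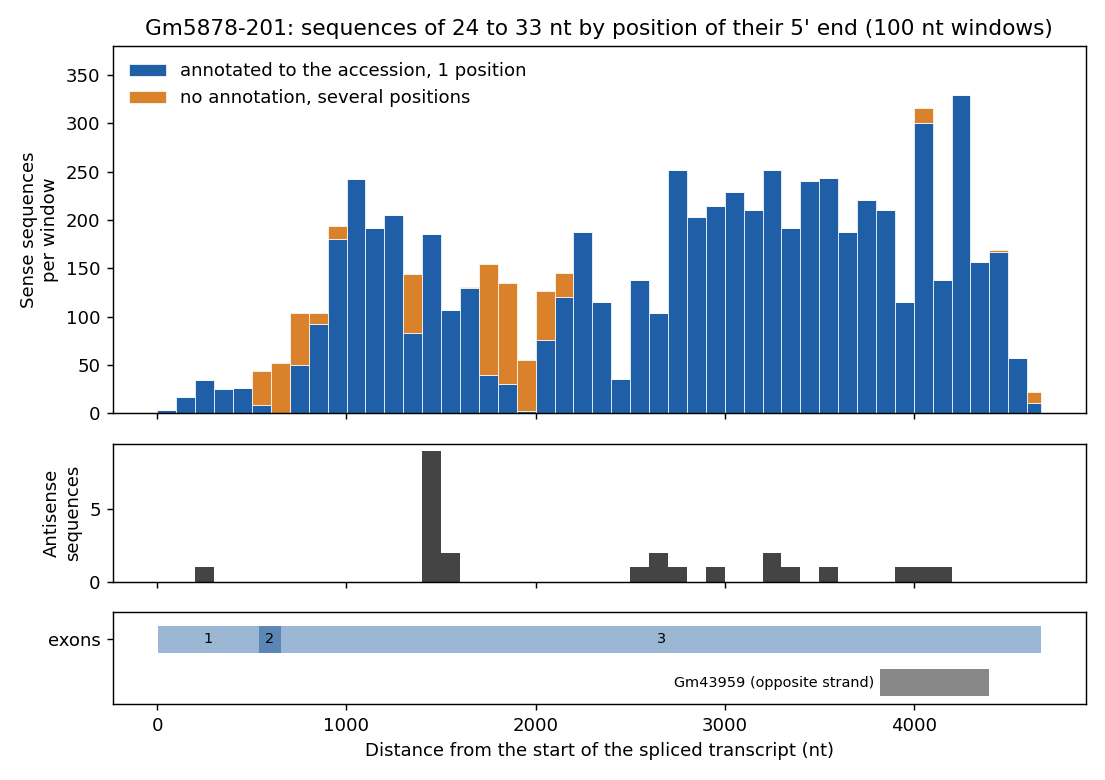
Top, sequences of 24 to 33 nt per 100 nt window along Gm5878-201, for sense sequences annotated to the accession that mapped to 1 position and for sense sequences without annotation that mapped to several. Middle, antisense sequences by the position of their 5' end, and bottom, the 3 exons and the pseudogene Gm43959. Exon 3 held 98.2% of the accession's sequences, and 9 of 24 antisense sequences began in 1 window.

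The stretch opposite the pseudogene was among the richer ones. Its 577 nt wholly contained 1133 sequences, or 1964 per kb, 17.8% of the main set on 12.3% of the transcript's length. These sequences were sense to Gm5878 and antisense to the pseudogene, and 3 sequences were sense to the pseudogene. Outside Gm5878 and Gm43959, the 14 annotated genes within 100 kb had at most 106 sense and 8 antisense sequences that mapped to 1 position, and 7 of them had none, so of the spliced transcripts near the locus only Gm5878 was rich.

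Antisense sequences were few and had the bases of ping-pong partners. Of 24 to 33 nt there were 24 that were annotated to the accession and mapped to 1 position, against 6361 sense sequences. A further 1, with another annotation and several positions, was left out. The 24 ranged from 24 to 33 nt with a median of 29.5 nt, and had 21 different 5' ends. Of these ends, 5 began with T, 6 with A, 6 with G and 4 with C. At position 10, however, 19 of the 21 (90.5%, 69.6 to 98.8) had A, while the number with A at the other positions from 1 to 20 was between 4 and 9. The order of bases was thus the reverse of that in the sense sequences, where T first was common and A at position 10 was not.

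The same antisense ends were placed 10 nt from sense 5' ends. A sense 5' end that began with T overlapped 18 of the 21 (85.7%, 63.7 to 97.0) by 10 nt. Such an end lies opposite position 10 of the antisense sequence, so only the 19 ends with A there could have one. This count and that of A at position 10 are therefore tied. At every other overlap from 1 to 20 nt the number was between 2 and 8, and the mean over 11 to 20 nt was 23.3%. When sense 5' ends with any first base were counted, the number was again 18 at 10 nt, and between 6 and 15 at the other overlaps. Sense 5' ends were dense on this transcript, and 70.4% of its T bases were used, so partners at other overlaps were common. The base opposite was T for 4 to 9 of the antisense ends at other overlaps, so those overlaps are an unlike background. How much of the excess at 10 nt goes with A at position 10 was not tested. The partners at 10 nt had between 1 and 10 lengths, with a median of 5.5, close to the median of 5 over all sense ends with T.

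The 3 pairs printed next show this arrangement. They are those whose sense end had most lengths among pairs with an antisense sequence of at most 30 nt, and of another pair with as many lengths as the last of them, the one nearer the start of the transcript was taken. The first 10 bases of each sequence are in capitals and are the reverse complement of the first 10 bases of its partner.
Antisense, chr6:85112040-85112069: CACAGAGACAtaaaggccagcaacattttg
Sense, chr6:85112020-85112049: TGTCTCTGTGaacagtgtgattgtcatgac
Antisense, chr6:85111977-85112005: GCTCAAAGGAtgtttgcccagatacaaca
Sense, chr6:85111957-85111986: TCCTTTGAGCctaactctcctctaaagacc
Antisense, chr6:85112846-85112872: TCCCTCATGAgcaacagactggaaatc
Sense, chr6:85112826-85112855: TCATGAGGGAatcagccacaggttggtcca
The sense ends of the first and the second pair had 9 lengths between 24 and 33 nt and that of the third had 8. Each antisense sequence has A as its last base in capitals, opposite the first T of its partner.

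Of the 24 antisense sequences, 9 lay within 60 nt (chr6:85114624-85114683, bases 1407 to 1466), a stretch picked after its values had been seen. Their 6 different 5' ends all had a sense 5' end at 10 nt. Of the 15 antisense 5' ends elsewhere, 12 did, so the arrangement was not limited to that stretch. Within the stretch, the antisense ends at bases 1463 to 1466 were consecutive and faced the consecutive sense ends at bases 1454 to 1457. They are hardly separate cases, here and in the counts above. Inside the pseudogene Gm43959, which takes up 12.3% of the transcript's length, lay 3 of the 24 antisense sequences.

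**Figure D4:**
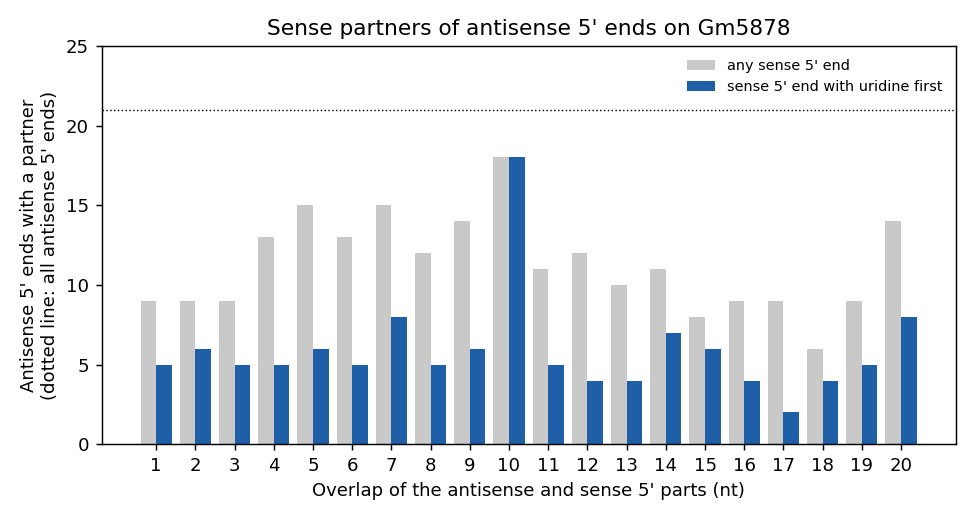
Number of the 21 antisense 5' ends on Gm5878-201 that had a sense 5' end at each overlap from 1 to 20 nt, for sense ends with any first base (grey) and with uridine first (blue). The dotted line marks all 21 antisense ends, and 18 had a partner with uridine first at 10 nt, against at most 8 at another overlap.

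Unlike the partners across strands, 3' and 5' ends on the sense strand showed no preferred spacing. In phased processing a 5' end follows directly on the preceding 3' end. Of 2527 sense 3' ends, 51.9% were followed by a sense 5' end at a distance of 1 nt, and between 50.7% and 52.5% at distances of 2 to 20 nt. With 3' ends of at least 4 sequences and 5' ends of at least 5, a choice made after the data had been seen, the share was 17.0% at 1 nt and between 15.6% and 18.7% at the others. The base after the 3' end was T for 28.5% (26.7 to 30.3) of the 3' ends, against 26.8% in the transcript. As 5' ends filled 42.5% of the bases, a spacing carried by a minority of molecules was not detectable from distinct sequences.

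Sequences of 19 to 23 nt shared their ends with the longer ones. There were 1355 sense sequences of this length that mapped to 1 position. Of these, 80.9% (78.7 to 83.0) began at a 5' end of the main set, and 91.8% (90.2 to 93.2) ended at one of its 3' ends. These 5' ends took up 42.5% of the transcript, and the 3' ends 54.1%. In exon 3, which held most of the main set, the 5' ends were denser, at 480 per kb, so 42.5% is a low background there. The sequences of 19 to 23 nt that shared the 5' end had T first in 57.85% of cases and the others in 7.72%. The main set had used 70.4% of the T bases and 27.9% to 37.7% of the other bases. T was therefore scarcer among the bases left, and this split is partly set by how the groups were made.

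Set beside other noncoding genes, Gm5878 lay near the middle in most measures. Counted over all sequences of 24 to 33 nt that mapped to 1 position, whatever their annotation, it had 6365 sense sequences, the seventh highest number among 44 noncoding genes with at least 500. Its density of 1362 per kb, its 63.0% with T first, its 37.3% of 29 to 31 nt and its 3.19 sequences per 5' end compared with medians of 1107 per kb, 65.9%, 35.5% and 2.83 in those genes. That 99.9% of its sequences carried an mRNA accession follows from how it was chosen, and none of the sequences of the other 43 genes carried one. Among 139 coding genes with at least 500 sense sequences, the medians were 144 per kb, 81.5% with T first and 1.54 sequences per 5' end, and only 1 of them exceeded Gm5878 in density. These differences were not tested.

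Across the 183 genes the share with T first was lower in genes of higher density, with a Pearson r of -0.83 between the share and the log10 density and a Spearman rho of -0.80. These describe genes of 1 pooled list, which share its depth. The 26 other genes within 1.5 times the density of Gm5878 had a median of 60.65% with T first, in a range from 26.07% to 73.52%. Of these genes, 23 were noncoding. All but 1 of the 26 shares lay between 49.72% and 73.52%. The share in Gm5878 was near the median of these genes of like density. How much of its distance from the mRNA accessions goes with density was not tested.

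**Figure D5:**
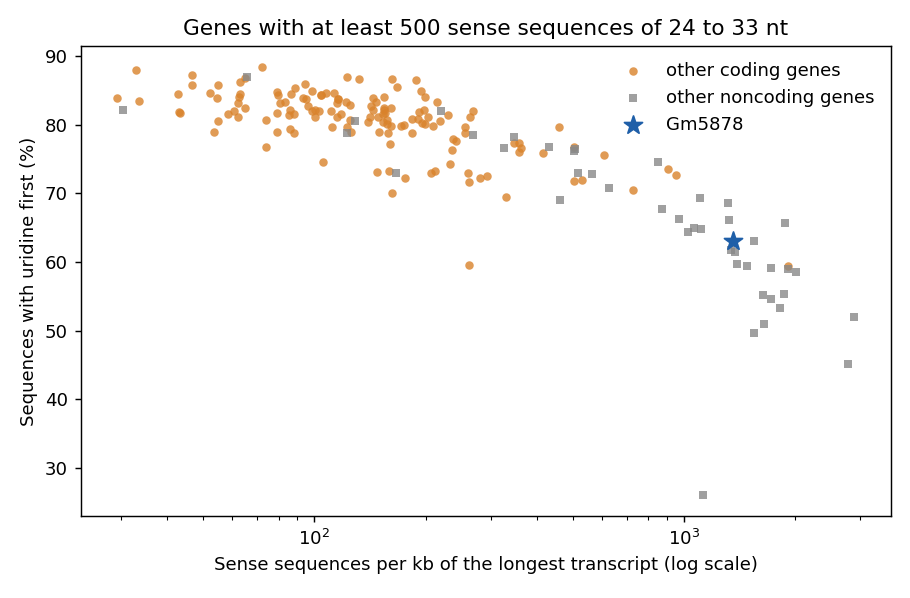
Share of sense sequences with uridine first against sense sequences per kb of the longest transcript (log scale) for 139 coding and 44 noncoding genes with at least 500 sense sequences of 24 to 33 nt, Gm5878 included. Gm5878, with 1362 per kb and 63.0%, lies among the dense noncoding genes, and most coding genes lie at lower density and higher shares.

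The 10 nt overlap was not particular to Gm5878. Among 22 other genes with at least 1000 sense sequences and at least 10 antisense 5' ends, the share of antisense 5' ends with a T-first sense 5' end at 10 nt ranged from 5.88% to 86.2%, with a median of 52.4%. The median of the same genes' means over 11 to 20 nt was 17.7%, and 21 of the 22 had a higher share at 10 nt than over the other overlaps. How often their antisense ends had A at position 10, which bounds the share at 10 nt, was not counted. The 85.7% of Gm5878 rested on 21 antisense ends, and 1 of the 22 genes had a higher share with T first. With sense ends of any first base, the shares at 10 nt in the 22 genes ranged from 11.76% to 96.55%. Several of these genes then had a higher share than Gm5878. In a few genes, but not in most, the share then hardly or not at all exceeded the mean over 11 to 20 nt, as in 39.61% against 38.44%.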

How the data were processed

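Small RNA of 19 to 33 nt was selected from total RNA of mouse testes, ligated to linkers at both ends and amplified, per the labels' protocols. The authors deposited 1 table of 3 columns for all 8 libraries. Per the file headers the columns are the sequence, its map number (taken as the number of matching places) and an annotation. No column named a library. Aligner, genome build, annotation order and any read minimum are not given in the sources used here, and introns were not searched.

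Sequences were matched exactly, over their whole length and on both strands, to GENCODE M21 transcripts of GRCm38 (Python 3.11.15, numpy 2.4.6, scipy 1.17.1). Genes were compared on their longest transcript, with sequences that mapped to 1 position. The design fixed no test, since groups held 1 library each. Members, lists and cutoffs were chosen with earlier results of these data known. Accessions named are the 4 nearest in rank, genes those with at least 1% of the sequences. Sequences printed are 5 of the 5' ends with most lengths, with ties broken by lengths outside the window and ends within 5 nt of another left out, a choice made after seeing the data. Placement was tested on simulated data: 2000 of 2000 sequences were placed where they were drawn, and 0 of 1000 random ones.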

Additional observations from a re-analysis of the deposited data

Results flagged for a closer look

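Sequences left out of the main set drew attention because they lay on the same transcript. There were 606 sequences of 24 to 33 nt that matched the sense strand of Gm5878-201 but mapped to several positions and carried no annotation, 579 of them to 2 positions. T was first in 64.4% (60.4 to 68.2). Of these, 349 began between bases 1600 and 2200, where the accession had 399 sequences, so the dip of the profile in that stretch went with sequences that are not unique. Another 24 carried the repeat name B1_Mur4 and began between bases 574 and 628, all in exon 2.

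The accession also had 290 sequences of 15 to 18 nt, below the labelled size range. T was first in 31.03% (25.8 to 36.7). Of the 267 that matched the sense strand and mapped to 1 position, 96.6% (93.7 to 98.4) shared a 3' end with a sequence of 24 to 33 nt and 68.5% (62.6 to 74.1) a 5' end, against 54.1% and 42.5% of all bases of the transcript. In exon 3 the 5' ends were denser than that, at 480 per kb.

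Above the labelled range there were 37 sequences of 34 to 36 nt, and 75.7% (58.8 to 88.2) began with T. The 20 sequences of the accession that did not match the transcript had at least 5 mismatches at their best place and were not located.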

How the results depend on the processing

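A window of 25 to 32 nt, other map numbers, other background distances and overlaps, and other minimum numbers for the accessions compared changed no direction where each was run. A window of 19 to 33 nt was used only for the number of sequences, which was 7773. With each 5' end counted once, 44.5% rather than 63.0% had T first, because ends with T hold more sequences. With all sense sequences of the locus, whatever their annotation, 97.5% rather than 98.2% began in exon 3. With any first base of the sense partner, the excess at 10 nt was 38.6 rather than 62.4 percentage points. Both of these alternatives were chosen after seeing the data. A search of the genome in place of spliced transcripts was not run. Counts of distinct sequences stop at 10 per 5' end, so they do not rank abundant ends. No paired analysis was possible because the table ties no sequence to a library.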
